A study of Mus musculus with 12 samples.

Results

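Exon and intron methylation were compared within 14244 mouse genes on chromosomes 1 to 19. A gene was included when a methylation level of its exons and a level of its introns were both given in each of the 12 libraries of the series, and no level was used to choose it. Of 26197 genes with an exon or intron level in at least 1 library, 16885 had both, counted over all libraries together. Both were given in all 12 libraries for 14594 genes, with 339 of these on the X chromosome, which was left out. Among the 14244 genes, 12526 (87.9%) were protein coding. The annotated span of 8381 genes (58.8%) overlapped that of another gene, so that an intron of one gene can hold exons of the next.

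The libraries were made by reduced representation bisulfite sequencing (RRBS) of C57BL6 mouse cells, with 2 libraries in each of 6 groups. Female embryonic stem cells (ESCs) came from fertilized embryos and parthenogenetic embryonic stem cells (pESCs) from activated oocytes, which carry no paternal genome. Both lines bore an Actin-GFP transgene according to the study. ESC-PGCLCs and pESC-PGCLCs are primordial germ cell-like cells induced from these lines through epiblast-like cells grown with bFGF, Activin A and serum replacement and then with BMP4, SCF, EGF and LIF. Primordial germ cells (PGCs), the embryonic precursors of eggs and sperm, were of embryonic day 9.5 (E9.5) or 12.5 (E12.5). They came from female embryos according to the study and were isolated by the surface markers SSEA1 and CD61 or by SSEA1 alone. The labels name no mutant allele. The labels do not say whether the 2 libraries of a group came from separate cultures, lines or embryos, so p-values measure only the spread between these libraries. The libraries hold DNA methylation and no expression, so cell type markers could not be examined.

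Methylation of cytosines in CG pairs covers most of a mammalian gene body, whereas CpG islands, the CG-rich stretches at many promoters and first exons, are mostly free of it. Gene body methylation is laid down by DNMT3A and DNMT3B and copied after replication by DNMT1 with UHRF1, which brings DNMT1 to newly replicated DNA. In migrating and early gonadal PGCs most of this methylation is lost, including the marks of imprinted genes, which carry methylation on only the maternal or only the paternal copy in other cells. RRBS reads the genome from cuts of the enzyme MspI at CCGG, so a gene part is seen only near such sites.

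The annotated exons of the 14244 genes held a median of 10 MspI sites and the introns a median of 18. Exons were the denser part, with 2.33 sites per kb against 0.678 in introns. Of the exonic sites 37.1% lay in CpG islands listed in the deposited files, and of the intronic sites 8.24%. By the annotation 55 genes had no MspI site in an exon and 280 had none in an intron. The deposited tables do not state which sites stand behind a level, and the sites read can differ between libraries. For 42 genes the exon and intron levels were equal in all 12 libraries, and for 95 others in 1 to 11 libraries.

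The short windows below show MspI sites of 5 genes whose exon and intron levels moved apart and of Plagl1, whose parts moved together, with the site CCGG in capitals, on the gene's strand, from the GRCm38 build. In each gene the first site whose whole window lies in coding exon and the first whose window lies in intron are printed, and none of them is inside a listed island. They are examples of sites in each part, do not stand for its sites in islands, and are not known to be the sites that were read. In Mier3, for instance, 7 of 14 exonic and 36 of 67 intronic sites lay in listed islands. Serpinh1, which codes for a collagen chaperone, spans chr7:99345376-99353239 on the minus strand, and its windows are chr7:99346140-99346169 in coding exon and chr7:99352525-99352554 in intron. Bpgm, which codes for bisphosphoglycerate mutase of red blood cells, lies at chr6:34476207-34505613 on the plus strand, with windows chr6:34487753-34487782 and chr6:34476856-34476885. Vps18, a subunit of complexes that tether membranes to the lysosome, lies at chr2:119288740-119298453 on the plus strand, with windows chr2:119292973-119293002 and chr2:119289598-119289627. Mier3, a co-repressor family gene, lies at chr13:111680979-111718596 on the plus strand, with windows chr13:111705234-111705263 and chr13:111681179-111681208. Scgn, which codes for the calcium binding protein secretagogin, lies at chr13:23953456-23991214 on the minus strand, with windows chr13:23953936-23953965 and chr13:23990836-23990865. Plagl1, an imprinted zinc finger gene, lies at chr10:13060504-13131694 on the plus strand, with windows chr10:13127192-13127221 and chr10:13060868-13060897.
Serpinh1 coding exon: ttggccgcctggtCCGGcccaagggagaca
Serpinh1 intron: atgtggaaggtggCCGGacttgaccaatta
Bpgm coding exon: agatctacagtgaCCGGaggtacaaagtgt
Bpgm intron: caggaaccatattCCGGgttcaggggaaca
Vps18 coding exon: atggacagaaggcCCGGcccctggctcgct
Vps18 intron: ggagatgattgtcCCGGggtaaagctggct
Mier3 coding exon: aaagacctgctgtCCGGcgatgacgaggaa
Mier3 intron: gcattccgtaagtCCGGtgactcttttttg
Scgn coding exon: atctggataagttCCGGgagattctgcttc
Scgn intron: tgactactgagtgCCGGagaaagtaccctc
Plagl1 coding exon: agaagacattcaaCCGGaaggaccacctga
Plagl1 intron: agttccccccagcCCGGatgagaattatag

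Each library gave a level for between 144375 and 166476 features, and the read depth behind the levels is unknown. ESC replicate 2 stood below ESC replicate 1 over the 14244 genes, with an exon mean of 16.2% against 20.04% and an intron mean of 20.6% against 24.8%. In the other groups the SD of the 2 library means was at most 0.539 points in exons and 0.598 points in introns. Every change measured against ESCs therefore has the wider spread of that group behind it. The limma fit of stem cells and PGCLCs shares its estimate of spread, so the ESC libraries also enter the tests of the pESC line.

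Exons were less methylated than introns of the same genes in every library. The mean exon level was 31.6% ± 0.356 (SD, n = 2) in E9.5 PGCs and the mean intron level 37.7% ± 0.474. In E12.5 PGCs the means were 19.8% ± 0.270 and 23.7% ± 0.263. ESC-PGCLCs had 24.5% ± 0.312 in exons and 29.4% ± 0.416 in introns, and pESC-PGCLCs 22.5% ± 0.254 and 27.2% ± 0.370. The lowest exon mean belonged to ESCs, with 18.1% ± 2.68 against 22.7% ± 2.99 in introns, and pESCs had 18.6% ± 0.539 and 23.4% ± 0.598. The exon mean lay below the intron mean in 12 of 12 libraries, by 4.82 points on average (exact two-sided sign-flip permutation test over libraries, p = 0.000488, the smallest it can give with 12). These libraries read the same genes and come 2 to a group, so they are not independent units. The p-value says only that the sign was shared among them. It is not a test across genes or animals. The exon minus intron difference was widest in E9.5 PGCs, at -6.10 points, and narrowest in E12.5 PGCs, at -3.96 points. It rested on a minority of genes, since the median difference per group was between -1.10 and -1.62 points. Over genes that overlap no other gene it was between -2.70 and -4.00 points.

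**Figure D1:**
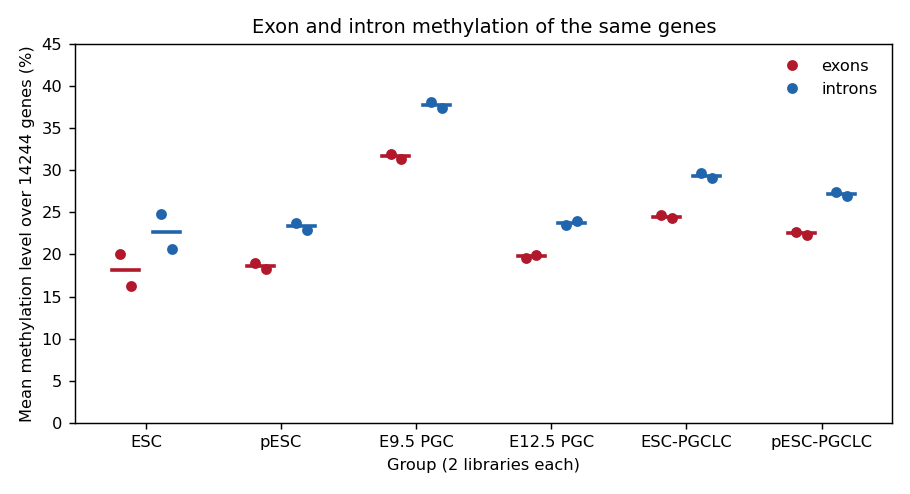
Mean methylation level (%) of exons (red) and introns (blue) over 14244 genes in each library, by group, with a bar at the mean of the 2 libraries. Introns lie above exons in each group, and both parts are highest in E9.5 PGCs, at 31.6% and 37.7%.

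The mean hides a wide scatter between the 2 parts of a gene. Across genes the exon and intron levels of 1 library correlated with Pearson's r between 0.472 and 0.502 over 14244 genes, which are not independent replicates and share the library. In E9.5 PGCs the intron was the higher part by at least 10 points in 35.1% of genes and the exon in 23.2%. The corresponding shares were 29.9% and 18.1% in E12.5 PGCs and 30.3% and 16.6% in ESCs.

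With levels under 20% called low and levels of 60% or more called high, 3902 genes were low in both parts in E9.5 PGCs and 1886 were high in both. A low exon beside a high intron was found in 1039 genes, and a high exon beside a low intron in 318. At E12.5 only 20 genes were high in both parts, 53 had a low exon and a high intron, and 13 had the reverse. The 1039 genes with a low exon and a high intron at E9.5 were long, with a median span of 55510 bp against 25176.5 bp over all 14244 genes. In them 45.5% of exonic MspI sites lay in islands and 2.28% of intronic ones. Their transcription start lay in an island in 71.5%, against 26.5% of the 1886 genes high in both parts. These classes were drawn on the E9.5 levels, so their later levels are a description. The 1039 introns went down from 70.3% to 45.9% by E12.5 and were at 43.6% in ESCs, while their exons stayed between 3.94% and 5.61% in all 6 groups. The 318 exons of the reverse class went from 72.9% to 45.6% and were at 36.6% in ESCs, with introns between 5.76% and 8.95%.

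**Figure D2:**
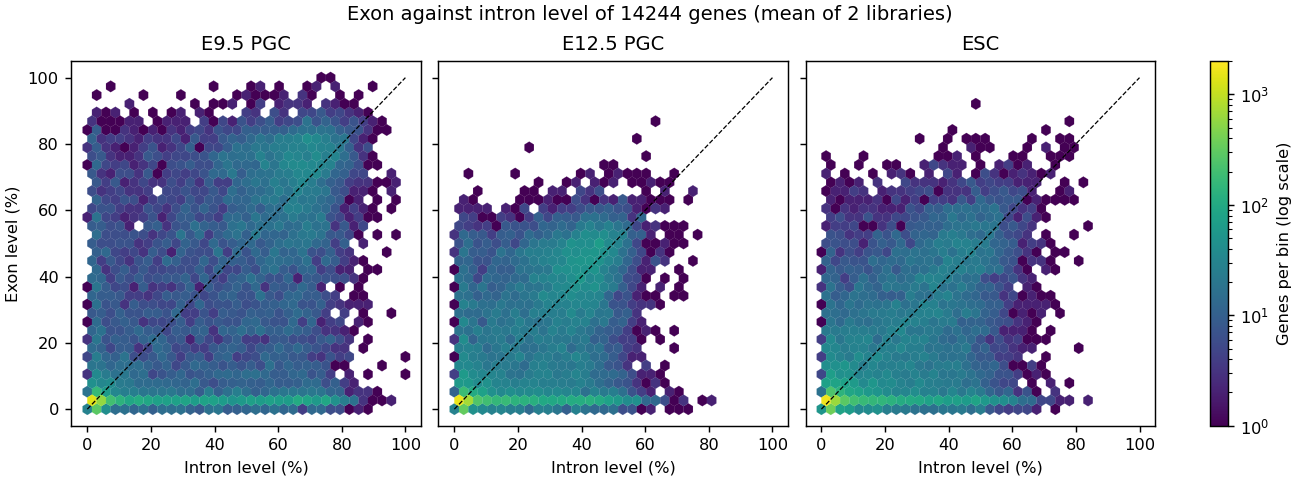
Exon level (%) against intron level (%) of 14244 genes (mean of 2 libraries), with a panel for each PGC stage and for ESCs, coloured by the number of genes per bin on a log scale, with a dashed line where both parts are equal. The band along the bottom holds genes with low exons at all intron levels, and the cloud of genes high in both parts at E9.5 (1886 genes) sits lower at E12.5 (20 genes).

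Where the islands lie within a gene went with which part was lower. In 3075 genes with no listed island the parts were close, with 55.3% in exons and 55.9% in introns of E9.5 PGCs. In 2329 genes with an island in exons and none in introns the levels were 22.2% and 39.7%. In 220 genes with an island in introns and none in exons the order was the opposite, with 45.6% in exons and 29.3% in introns. The remaining 8620 genes had island sequence in both parts, with 25.4% in exons and 31.0% in introns. The order of the parts thus followed the side of the island in E9.5 PGCs.

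The share of MspI sites in islands gave the same picture. In 4904 genes the share differed by less than 10 points between the parts, and at E9.5 both parts then had 47.4%. In 2689 genes the exonic share was larger by 50 points or more and the exon level was 11.9% against 31.5% in introns. In 184 genes the intronic share was larger by that much, with 26.2% in exons and 10.6% in introns. Span moved with the same difference. Among the shortest genes, up to 8509 bp, exons had 27.6% and introns 26.1% in E9.5 PGCs. Among the longest, from 77498 bp upward, the exon level was 31.7% and the intron level 49.2%. These are descriptions across genes, and the separate parts of island position and span were not tested.

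**Figure D3:**
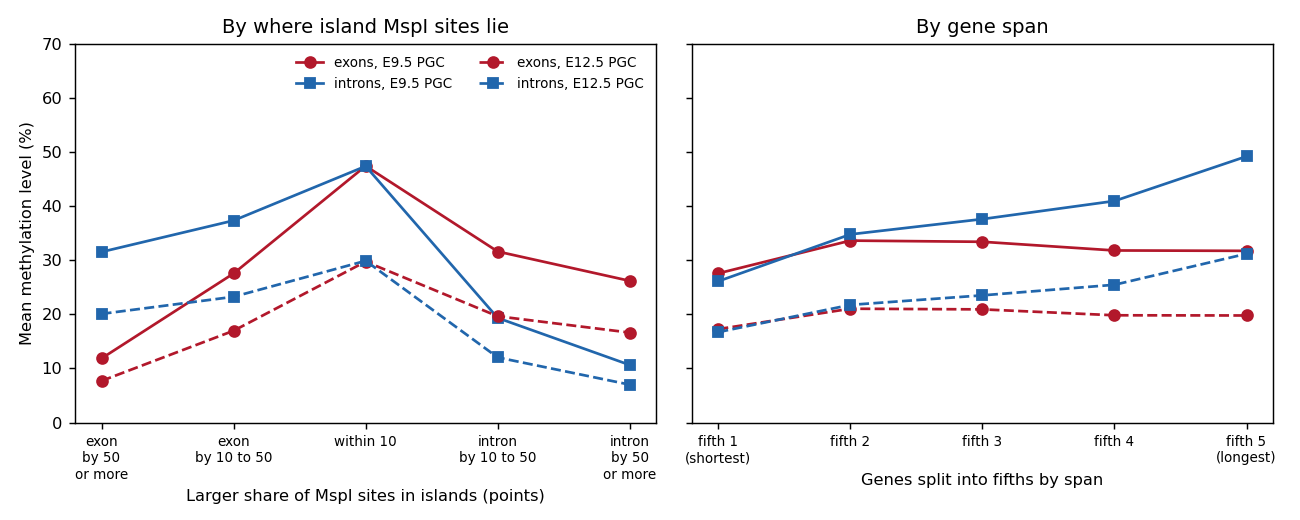
Mean exon (red circles) and intron (blue squares) level (%) in E9.5 PGCs (solid) and E12.5 PGCs (dashed), with genes split by the difference between the exonic and intronic share of MspI sites in islands, in points (left), and into 5 bins by span (right). At E9.5 the parts meet at 47.4% where the shares are alike, and the intron level rises from 26.1% to 49.2% from the shortest to the longest genes.

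The loss of gene body methylation in PGCs was measured between these stages, E12.5 against E9.5. Exons lost 11.9 points and introns 14.0 points on average, and the closest replicates of the 2 groups were 11.4 and 13.5 points apart. The difference between the parts shrank by 2.14 points, to -3.96 from -6.10. With 2 libraries against 2 an exact two-sided permutation test cannot go below p = 0.333, which is what each of these 3 changes gave. In proportion the loss was alike, since E12.5 PGCs held 62.5% of the E9.5 level in exons and 62.9% in introns.

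The share held at E12.5 varied with the starting level, and the parts were close at each level. Exons that began under 5% held 94.4% and introns 96.8%. Exons that began between 20% and 40% held 57.4% and introns 58.8%. Exons that began at 80% or more held 64.2% and introns 65.6%. In 4200 genes whose parts were within 5 points of each other at E9.5, exons held 64.2% and introns 65.2%. Among these, 1262 genes began at 20% or more in exons, and they held 61.9% in exons and 62.5% in introns. Bins were drawn on the E9.5 libraries themselves, so these shares are a description. Introns held slightly more than exons in each of the 6 bins.

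**Figure D4:**
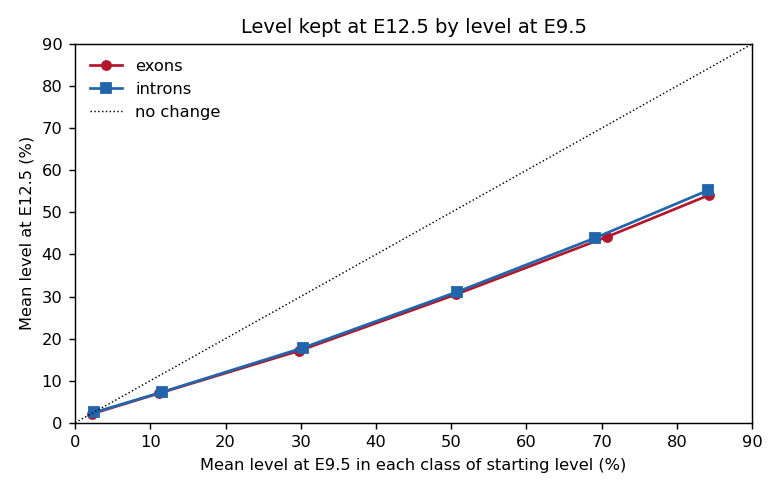
Mean level at E12.5 (%) against mean level at E9.5 (%) of exons (red circles) and introns (blue squares), with genes put in 6 classes by their E9.5 level, and a dotted line of no change. The 2 curves nearly coincide, and the classes of 80% or more end at 54.1% in exons and 55.2% in introns.

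Feature by feature, a change was called when limma gave an adjusted p under 0.05 and the 2 groups lay 10 points or more apart. By this rule 6668 exons and 8445 introns of the 14244 genes fell from E9.5 to E12.5, while 3 exons and 6 introns rose. Over all 137202 features tested 49.6% were called, 49.6% as lower and 0.0350% as higher. In 5396 genes (37.9%) both parts fell, in 1272 only the exon was called lower, in 3049 only the intron, and no gene had its parts called in opposite directions. Libraries differed in their median feature by -1.09 log2 odds between these groups. Relative to that median, that is with each library centred on it, 5085 exons were called higher and 2122 lower, and 3362 introns higher and 1866 lower. Centring shifted all features of a library alike, and the 10-point rule was applied to the centred levels. A part near 0 that barely changed can therefore be called by the shift of the median alone.

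The difference between exon and intron (the gap) was tested within each gene on the log2 odds scale. The exon rose relative to the intron in 1932 of the 14244 genes and fell in 1152. The background over all 14770 paired genes tested was 13.4% for rises and 8.03% for falls. In 1906 of the 1932 rises the intron was the higher part at E9.5, and in 1890 the gap in points had narrowed by E12.5. It had also narrowed in 1095 of the 1152 falls. These genes were picked by the change of their gap in these same libraries, where nearly all called parts fell. A higher part at E9.5 and a narrower gap at E12.5 largely follow from that choice, so the counts are a description. With centring there were 1858 rises and 1212 falls.

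Among the genes with the widest change of the gap, Tmem54, which codes for a membrane protein, showed 84.2% and 82.01% in the intron of E9.5 PGCs and 19.002% and 19.8% in that of E12.5 PGCs, with its exon between 2.01% and 2.30% in these 4 libraries. Its intron fell by 63.7 points (adjusted p = 7.47e-05). Rpl19, a ribosomal protein gene, showed the reverse layout, with exons at 83.4% and 82.2% and then 41.9% and 41.7%, and introns between 2.28% and 2.69%. Its exon minus intron level fell by 40.8 points (adjusted p = 0.00371). Actr5, a subunit of the INO80 chromatin remodeler, had an intron at 51.1% and 49.1% in E9.5 PGCs and at 0 in both E12.5 libraries. Elsewhere the Actr5 intron was between 2.50% and 10.7%, so it was high only at E9.5.

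Exons of Dctn6, a dynactin subunit, fell by 58.1 points, from 75.7% and 78.7% to 19.4% and 18.7% (adjusted p = 7.47e-05). Those of Prdm10, a zinc finger gene, fell by 57.5 points, from 73.2% and 69.1% to 11.8% and 15.3% (adjusted p = 7.47e-05). In both genes the intron moved less, from 51.8% and 56.6% to 28.4% and 28.5% in Dctn6 and from 48.6% and 40.7% to 26.5% and 27.8% in Prdm10. Lrp8, a receptor of reelin, had one of the 3 exons that rose, from 16.5% and 17.1% to 35.3% and 33.2% (adjusted p = 0.000543). The Dph6 intron, of a gene for diphthamide synthesis, rose from 2.11% and 5.83% to 21.1% and 18.1% (adjusted p = 0.00151). That intron was between 42.9% and 60.5% in the 8 ESC, pESC and PGCLC libraries, so PGCs at both stages had the lowest values.

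Gene lists were counted against all 14244 genes, whose median change from E9.5 to E12.5 was -8.80 points in exons and -15.04 points in introns, with 46.8% of exons and 59.3% of introns called. Of 29 genes of germ granules and meiosis, 24 exons and 25 introns fell, with medians of -23.2 and -22.1 points. With centring 5 exons and 8 introns of this list were lower and 1 intron was higher. Their parts had begun high, with E9.5 medians of 65.1% in exons and 71.1% in introns against 22.1% and 39.96% over all genes. Mael, a piRNA pathway gene, had exons at 76.1% and 78.4% and then 49.8% and 54.7% (adjusted p = 0.000287), with introns at 81.3% and 75.2% and then 55.0% and 60.4% (adjusted p = 0.00163). Dazl, an RNA binding gene needed for germ cell commitment, lost 23.9 points in exons, from 78.0% and 78.5% to 56.0% and 52.6% (adjusted p = 0.00011). The Dazl intron lost 12.2 points, from 33.6% and 33.3% to 22.2% and 20.4% (adjusted p = 0.000551), and this direction turned with centring.

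Of 18 genes with maternal imprints, 13 exons and 17 introns fell. Centring left 3 exons and 1 intron lower and 1 exon higher. The E9.5 medians were 57.6% in exons and 53.5% in introns and the E12.5 medians 35.5% and 32.1%. Plagl1 had exons at 59.6% and 66.5% and then 42.4% and 39.3%, and fell by 22.2 points (adjusted p = 0.00102). Igf2r, the receptor that clears IGF2, lost 20.8 points in its intron, from 55.7% and 65.1% to 42.0% and 37.3% (adjusted p = 0.00308). Mest, a paternally expressed gene, lost 17.2 points in its intron, from 63.3% and 62.8% to 45.7% and 45.9% (adjusted p = 0.000236), a direction that turned with centring. Of 5 genes at paternal imprints 2 exons and 3 introns fell, and with centring 1 exon and 2 introns were higher and none was lower.

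Among 24 genes of the DNA methylation machinery 15 exons and 13 introns fell, and with centring 7 exons and 1 intron were lower while 4 of each were higher. Here exons were the higher part, with E9.5 medians of 58.2% against 34.7% in introns. Uhrf1 had exons at 84.4% and 84.0% and then 56.4% and 59.5%, a fall of 26.3 points (adjusted p = 7.62e-05). Tet1, which oxidizes methylcytosine, lost 26.2 points in exons, from 75.3% and 75.0% to 48.6% and 49.2% (adjusted p = 7.47e-05), and its introns went from 16.5% and 14.7% to 8.69% and 8.29%. Zfp57, which protects imprints, had exons at 86.5% and 86.9% and then 57.6% and 63.4% (adjusted p = 0.000546), with introns between 1.42% and 2.75% in these 4 libraries. Trim28, the partner of ZFP57, had the opposite layout, with exons between 1.04% and 1.83% and introns at 34.2% and 31.5% and then 19.03% and 17.7%. The Trim28 intron lost 14.5 points (adjusted p = 0.000526), which turned with centring.

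Long neuronal adhesion and synapse genes fell in introns in 30 of 30 cases and in exons in 17. Among the longest of the 14244 genes, from 77498 bp upward, 80.4% of introns and 48.3% of exons were called. With centring 3 introns and 4 exons of the list were lower and 7 exons higher. Ptprd, a receptor phosphatase with one of the 3 longest spans (chr4:75941238-78211961), had introns at 62.6% and 62.4% and then 51.5% and 51.6%, while its exons were between 1.48% and 2.03% (intron adjusted p = 0.00104, a direction that turned with centring). The other two longest members, Gm20388 and Fgfr2, overlap many genes and had exons and introns between 48.7% and 58.0% at E9.5 and between 27.4% and 36.6% at E12.5. Of 33 collagens, structural genes of the extracellular matrix, 26 exons and 31 introns fell, and with centring 8 exons and 9 introns were lower and 1 of each was higher. The Col4a1 intron went from 70.2% and 69.8% to 39.4% and 39.4% (adjusted p = 7.47e-05).

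Pluripotency genes lost methylation in 6 exons and 6 introns of 15, and PGC specification genes in 7 exons and 8 introns of 15, shares near or below the 46.8% and 59.3% over all 14244 genes. With centring 4 exons and 4 introns of the former were higher, as were 5 and 5 of the latter, and 1 intron of the latter was lower. Esrrb, a naive pluripotency factor, had introns at 46.3% and 44.1% and then 27.4% and 27.9% (adjusted p = 0.000211, a direction that turned with centring). Prdm1, the first regulator of PGC fate, had introns at 53.6% and 58.6% and then 32.7% and 36.4% (adjusted p = 0.0032). The parts with the least to lose were those of housekeeping and Hox genes. Of 24 housekeeping genes 4 exons and 3 introns fell, with E9.5 medians of 2.50% and 2.24%, and with centring 16 exons and 21 introns were higher and 1 of each was lower. Of 31 Hox genes, the patterning genes of the body axis, no exon and no intron was called in either direction, and 29 exons and 27 introns were higher with centring. Their E9.5 medians were 2.67% in exons and 3.59% in introns, and their median changes -0.301 and -0.283 points. Parts this near 0 can come out higher with centring by the shift of the median alone. The centred counts of housekeeping and Hox genes are therefore no result about these genes.

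Levels after induction of PGCLCs were compared with those of the stem cells in both lines, as ESC-PGCLCs against ESCs and pESC-PGCLCs against pESCs. The study did not measure the epiblast-like cells in between, for which it cites higher methylation. Each gain or fall is therefore a net change between the end points. In the ESC line exons gained 6.36 points and introns 6.63 points, and the closest replicates were 4.24 and 4.23 points apart. In the pESC line the gains were 3.91 and 3.85 points, with the closest replicates 3.35 and 3.16 points apart. The gap between the parts changed by -0.277 points in the ESC line and 0.0655 points in the pESC line, both within the replicate spread. The exact two-sided permutation test gave p = 0.333 for each of the 4 gains, its smallest value, and p = 0.667 for each change of the gap.

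Calls ran in both directions here, although gains prevailed. In the ESC line 2359 exons rose and 171 fell, and 2571 introns rose and 216 fell. Of all 136848 features 14.6% were called, 13.7% as higher and 0.899% as lower. In the pESC line 1375 exons rose and 166 fell, and 1273 introns rose and 173 fell, against 9.66% of all features called, 8.91% as higher and 0.746% as lower. The median feature rose by 1.18 log2 odds in the ESC line and 0.93 in the pESC line. With centring 798 exons were higher and 6056 lower in the ESC line, and 541 introns higher and 5020 lower. In the pESC line the centred counts were 606 and 3648 exons and 402 and 3720 introns, so that lower calls outnumbered higher ones relative to the median feature. Leaving out ESC replicate 1 raised the calls in the ESC line to 4277 exons and 5117 introns, and leaving out ESC-PGCLC replicate 2 lowered them to 1484 and 1371. Leaving out any library of the pESC line lowered its calls, to between 804 and 1081 exons and between 636 and 955 introns.

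The 2 parts of a gene often moved apart between stem cells and PGCLCs. In the ESC line 1015 genes rose in both parts, 1329 were called higher in the exon only and 1543 in the intron only. The numbers in the pESC line were 418, 949 and 849. In the ESC line the exon rose relative to the intron in 1002 genes and fell in 867, against a background of 7.01% and 6.02%. For the pESC line there were 747 rises and 605 falls, against 5.29% and 4.22%. They depended on single libraries. The 1869 gaps of the ESC line became 710 without ESC-PGCLC replicate 2, 955 without replicate 1 and 2308 without ESC replicate 1. The 1352 gaps of the pESC line came down to 306 without pESC-PGCLC replicate 2, 333 without replicate 1, 587 without pESC replicate 1 and 855 without pESC replicate 2. With centring the gap calls were 912 rises and 994 falls in the ESC line and 674 and 714 in the pESC line. In the 1002 rises of the ESC line the exon went from a mean of 17.3% up by 25.0 points while the intron moved by 1.998 points. In the 867 falls the intron went from 20.8% up by 20.1 points while the exon moved by -1.996 points. Both sets were picked by the change of the gap in these same libraries, so these unequal movements are a description.

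Serpinh1 had the widest rise of the gap in the ESC line. Its exon level was 3.95% and 9.68% in ESCs, 3.94% and 5.26% in pESCs, 77.9% and 78.6% in ESC-PGCLCs, with 62.6% and 66.7% in pESC-PGCLCs. PGCs had 80.1% and 78.9% at the earlier stage and 49.6% and 45.8% at the later, while the intron was between 3.71% and 10.2% in all 12 libraries. The exon was thus low in the 4 stem cell libraries and high in the other 8, with no overlap. It rose by 71.5 points in the ESC line (log2 odds 5.50, SE 0.38, adjusted p = 0.000145) and by 60.03 points in the pESC line (log2 odds 4.97, SE 0.38, adjusted p = 0.00031).

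Exons of Zfp647, Erp27, Cops4, Leprotl1 and Ctu1 were low in stem cells in the same way. Zfp647, a zinc finger gene, went from 7.91% and 3.68% in ESCs to 78.1% and 79.0% in ESC-PGCLCs (adjusted p = 0.00014) and from 8.73% and 4.72% to 73.9% and 70.3% in the pESC line (adjusted p = 0.000328). Cops4, a subunit of the COP9 signalosome, had exons between 0.595% and 2.14% in the 4 stem cell libraries and between 38.3% and 75.6% in the other 8, with introns between 0.709% and 2.56%. Ctu1, a tRNA thiolation gene, paired an exon that rose from 8.94% and 4.98% to 59.5% and 59.2% with an intron that went from 50.4% and 25.9% to 24.8% and 17.6%. Of the 14244 genes, 253 exons and 171 introns were under 10% in all 4 ESC and pESC libraries and at 20% or more in the other 8, with 44 genes showing this in both parts. The share of all features with this pattern is not given, so the counts are a description of these genes without a background.

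Introns showed the same layout in other genes. Rspo2, a Wnt pathway agonist, had introns between 5.53% and 7.35% in stem cells, 80.5% and 80.05% in E9.5 PGCs, 57.2% and 57.1% in E12.5 PGCs, 64.3% and 65.3% in ESC-PGCLCs, with 57.6% and 59.3% in pESC-PGCLCs. Its exon stayed between 1.16% and 2.73%. The Rspo2 intron rose by 57.7 points in the ESC line (adjusted p = 7.45e-05) and 52.0 points in the pESC line (adjusted p = 0.000163). Cln8, a gene of endoplasmic reticulum to Golgi transport, had an intron level of 71.5% and 71.9% in ESC-PGCLCs, with 65.6% and 66.5% in pESC-PGCLCs. In the 4 ESC and pESC libraries its exon and intron values were equal, between 3.39% and 6.73%, and in the other 8 they were not. Tlr12 was the only other of the 14244 genes with that pattern, so the sites behind the Cln8 intron may differ between these libraries, and their part in its rise of 66.2 points (adjusted p = 7.45e-05) was not tested.

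Over all 14244 genes 17.8% of exons and 19.6% of introns were called in the ESC line and 10.8% and 10.2% in the pESC line. Of 29 germ granule and meiosis genes 13 exons and 8 introns rose in the ESC line and 10 and 4 in the pESC line, and none fell. With centring 7 exons were higher and 4 lower in the ESC line, with 1 intron higher and 6 lower, and in the pESC line 5 and 5 exons and 2 and 8 introns. Mael exons went from 32.9% and 12.8% in ESCs to 58.5% and 63.9% (adjusted p = 0.0126) and from 23.4% and 18.5% in pESCs to 55.9% and 54.0% (adjusted p = 0.0306). Zfp57 exons went from 9.45% and 5.26% to 64.7% and 52.9% (adjusted p = 0.000262) and from 7.87% and 7.37% to 48.9% and 50.4% (adjusted p = 0.000729), with introns between 1.04% and 3.01%. Trim28 introns went from 2.59% and 2.49% to 22.5% and 20.2% (adjusted p = 0.000147) and from 2.54% and 3.25% to 17.9% and 19.8% (adjusted p = 0.000343). So Zfp57 gained in the exon and Trim28 in the intron, each with the other part near 1% to 3%.

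Among 24 machinery genes 7 exons and 9 introns rose in the ESC line and 4 and 4 in the pESC line, but with centring 4 exons were higher and 4 lower and 1 intron was higher and 5 lower in the former, and 3 exons were higher and 6 lower and 1 intron was higher and 5 lower in the latter. Of 15 pluripotency genes 6 exons and 8 introns rose in the ESC line and 4 and 5 in the pESC line, while centring gave 2 exons higher and 4 lower and 1 intron higher and 2 lower in the former, and 1 and 4 exons and 1 and 2 introns in the latter. Pou5f1, which codes for OCT4, had exons at 3.49% and 4.93% in ESCs and 16.1% and 18.0% in ESC-PGCLCs (adjusted p = 0.00152), with 3.71% and 5.34% in pESCs and 14.8% and 15.8% in pESC-PGCLCs (adjusted p = 0.00382). Esrrb introns rose from 9.30% and 10.01% to 33.1% and 31.0% (adjusted p = 0.000502) and from 9.58% and 11.3% to 28.2% and 28.5% (adjusted p = 0.00161). Of 15 PGC specification genes 2 exons and 5 introns rose in the ESC line and 1 and 4 in the pESC line, while centring gave 1 exon higher and 5 lower and 1 intron higher and 7 lower in the former, and 1 and 3 exons and 1 and 5 introns in the latter.

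Of 30 neuronal genes 6 exons rose and 2 fell and 2 introns rose in the ESC line, and 4 exons rose and 1 fell with no intron called in the pESC line, whereas with centring 1 exon was higher in each line and 11 and 9 exons and 5 and 6 introns were lower. Of 33 collagens 3 exons rose and 1 fell and 3 introns rose in the ESC line, and 3 exons rose in the pESC line, whereas with centring 12 exons and 12 introns were lower in the ESC line and 12 and 14 in the pESC line, beside 1 exon higher in the pESC line. Of 24 housekeeping genes 4 exons and 3 introns rose in the ESC line and 2 and 1 in the pESC line, whereas with centring 15 exons and 17 introns were lower in the ESC line and 2 and 3 in the pESC line, and 1 exon was higher in each. Of 31 Hox genes 1 exon and 3 introns fell in each line and none rose. With centring 29 exons and 28 introns were lower in the ESC line and 17 and 20 in the pESC line. The Hox median changes in the ESC line were 0.0213 points in exons and -0.447 points in introns. Parts near 0 can come out lower with centring by the shift of the median alone. The centred counts of housekeeping and Hox genes are therefore no result about these genes here either.

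Falls from stem cells to PGCLCs, although few, left some parts with almost no methylation. Bpgm exons were at 48.1% and 40.4% in ESCs and 39.3% and 41.3% in pESCs, and at 3.35% and 2.91% in ESC-PGCLCs, with 3.33% and 5.86% in pESC-PGCLCs. Its introns went the other way, from 47.6% and 36.0% to 60.7% and 62.2% and from 41.3% and 35.8% to 56.1% and 60.2%. The exon fell by 41.1 points in the ESC line (adjusted p = 0.000136) and by 35.7 points in the pESC line (adjusted p = 0.000358). The intron rose by 19.7 points (adjusted p = 0.0294) and 19.6 points (adjusted p = 0.0401). Its sign on the log2 odds scale turned with centring in the ESC line. The intron call was kept in 6 of 10 alternatives in the ESC line and in only 3 of 9 in the pESC line. In PGCs the Bpgm exon replicates were far apart, at 3.42% and 24.3% at the earlier stage and 20.9% and 7.73% at the later.

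Vps18 was the mirror image. Its exons went from 37.6% and 32.6% in ESCs to 66.2% and 66.4% in ESC-PGCLCs (adjusted p = 0.000851), and its introns from 63.9% and 53.5% to 31.0% and 33.9% (adjusted p = 0.00645). In the pESC line the exons went from 36.5% and 37.5% to 58.9% and 60.1% (adjusted p = 0.00553) and the introns from 52.5% and 56.6% to 32.7% and 29.0% (adjusted p = 0.0132). PGCs at E9.5 had 81.1% and 81.0% in exons and 28.1% and 26.1% in introns, so in stem cells the intron was the higher part and in all PGC and PGCLC libraries the exon was. In the ESC line 13 genes had a lower exon with a higher intron and 15 the reverse. There were 6 and 8 such genes in the pESC line. Srsf12, a splicing regulator, had an exon change of 27.5 points and an intron change of -22.3 points in the ESC line, and 18.7 and -17.2 points in the pESC line. Cyfip1, a regulator of actin and translation, had -26.1 and 17.3 points in the ESC line and -23.0 and 12.7 points in the pESC line.

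A further group of parts was methylated in stem cells and almost bare in all PGC and PGCLC libraries. Cwc22, a splicing factor gene, had exons at 55.4%, 48.9%, 63.6% and 51.2% in the ESC and pESC libraries and between 0.857% and 2.92% in the other 8, with introns between 19.8% and 35.0% in all 12. Its exon fell by 50.2 points in the ESC line (adjusted p = 0.0001) and 55.2 points in the pESC line (adjusted p = 0.000168). Nsd2, a histone H3K36 methyltransferase gene, had exons at 33.0%, 18.7%, 49.3% and 49.1% in stem cells and between 0.755% and 2.02% elsewhere (pESC line adjusted p = 0.000247). In all, 8 exons and 6 introns were at 20% or more in the 4 stem cell libraries and under 10% in the other 8, in 14 different genes. No share over all features stands beside these counts either.

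**Figure D5:**
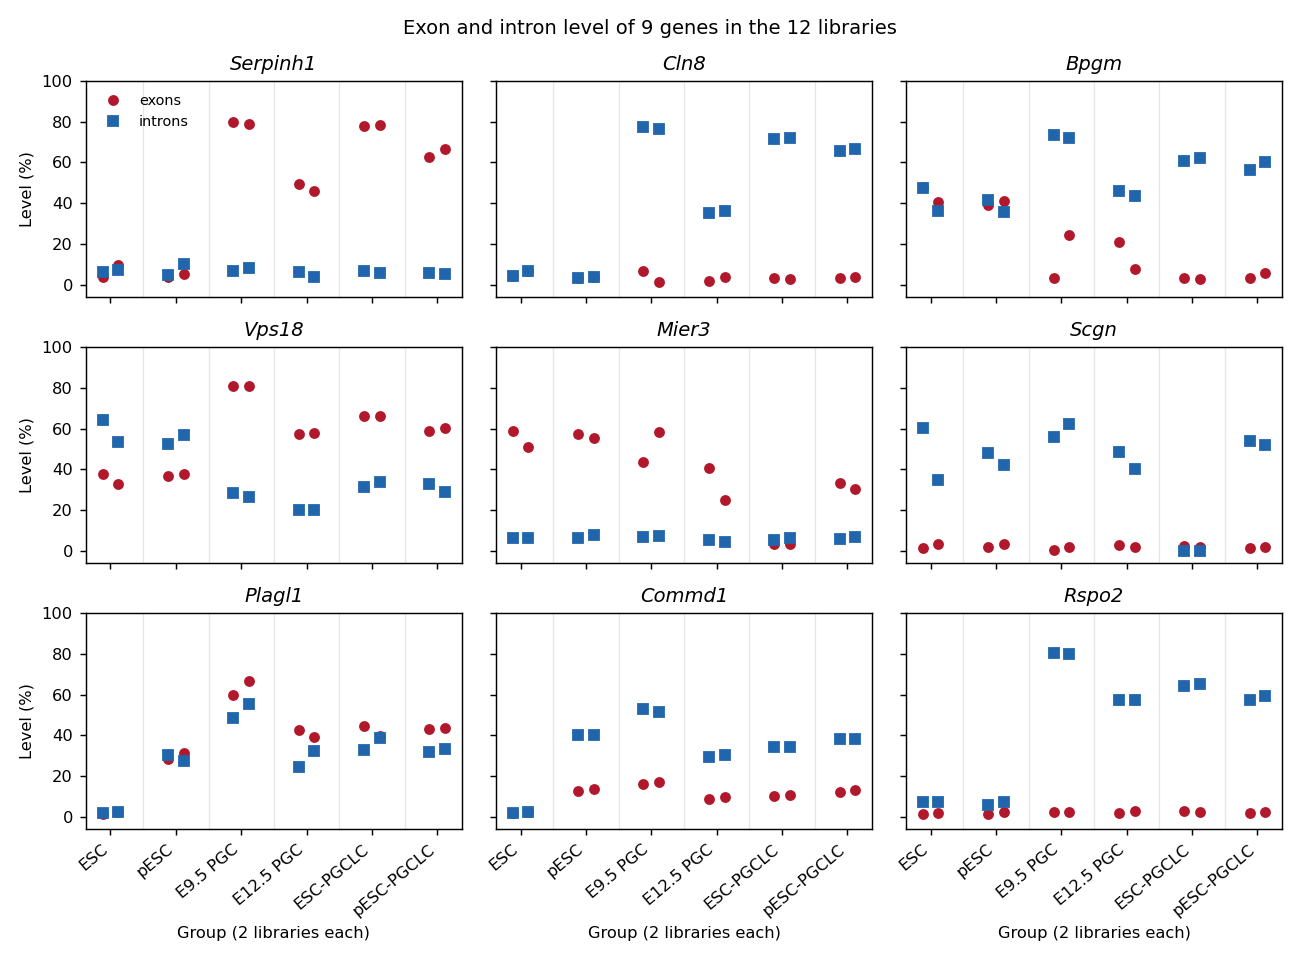
Exon (red circles) and intron (blue squares) level (%) of 9 genes in each of the 12 libraries, by group. Serpinh1 exons and Rspo2 introns are low in ESCs and pESCs and high elsewhere, the parts of Bpgm and Vps18 move in opposite directions, the Mier3 exon and Scgn intron are near 0 only in ESC-PGCLCs, and Plagl1 and Commd1 are near 2% in ESCs alone.

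pESCs were compared with ESCs to ask what a purely maternal genome does to these gene bodies. Exons differed by 0.486 points and introns by 0.645 points on average, with the pESC libraries between the 2 ESC libraries in both parts (exact two-sided permutation test, p = 1.0 for exons, introns and the gap). No exon, intron or gap was called by limma, against 0% of 148012 features and 0% of 15438 gaps. At an unadjusted p under 0.05 there were 117 exons, 122 introns and 183 gaps of the 14244 genes. Each is a smaller share than the 0.05 that this threshold would pass with no difference at all, so these counts are no result. With all 12 libraries in the fit 6 exons, 7 introns and 3 gaps were called, and without pESC replicate 1 there were 10 exons and 14 introns, without pESC replicate 2 there were 4 and 3.

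The genes that stood furthest apart included those of maternal imprints, although none was called. The Commd1 intron, which holds the imprinted gene Zrsr1, was at 2.06% and 2.09% in ESCs and 40.1% and 39.96% in pESCs (adjusted p = 0.0834). Plagl1 exons were at 1.42% and 2.12% in ESCs and 28.2% and 31.4% in pESCs (adjusted p = 0.0995). The Mest intron was at 14.998% and 17.5% against 64.4% and 59.6% (adjusted p = 0.205). In each of these 3 the ESC and pESC libraries did not overlap. For the Commd1 and Mest introns this was a condition of being named, so it is no support for a difference. The exon of Commd1, at 1.61% and 2.17% against 12.8% and 13.7%, was much lower than its intron in pESCs.

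Snrpn, a paternally expressed splicing factor gene, had exons at 31.4% and 33.3% in ESCs and 67.3% and 67.0% in pESCs, and introns at 31.6% and 36.3% against 71.9% and 69.6%. Snurf, which shares exons with Snrpn so that their levels are not independent, had exons at 36.0% and 36.4% against 78.5% and 80.1%. Gnas, a G protein subunit gene with several imprinted transcripts, differed more in exons, at 16.1% and 15.04% against 45.1% and 45.5%, than in introns, at 15.5% and 16.4% against 27.6% and 29.1%. Igf2r, at 24.9% and 23.4% against 52.9% and 59.2% in introns, had overlapping exons, at 32.0% and 39.8% against 29.8% and 50.2%. Over the 18 maternal imprint genes the median was 18.5% in exons and 18.4% in introns of ESCs, and 31.8% and 33.6% in pESCs. Over the 5 paternal imprint genes the medians were 15.1% and 13.7% in ESCs and 13.7% and 11.9% in pESCs.

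In PGCLCs of the 2 lines most parts of the genes named above had come closer, though not equally. The pESC-PGCLC minus ESC-PGCLC difference was 9.91 points in the Snrpn intron and 8.61 points in the Mest intron. It was 3.60 points in the Commd1 intron and -7.41 points in the Igf2r exon, and none of these was called. The Igf2r exon, whose libraries overlapped between ESCs and pESCs, was not among the parts that came closer. Of the 18 maternal imprint genes 7 exons and 11 introns rose in the ESC line and 1 exon fell, and in the pESC line 2 exons rose and 2 fell and 2 introns rose. With centring the ESC line had 4 exons and 6 introns higher and 4 exons lower, and the pESC line 1 exon and 2 introns higher and 9 exons and 7 introns lower. The Commd1 intron was at 34.4% in both ESC-PGCLC libraries and 38.0% in both pESC-PGCLC libraries, and E9.5 PGCs had 53.1% and 51.3%. Plagl1 exons were at 44.7% and 39.7% in ESC-PGCLCs, with 42.9% and 43.4% in pESC-PGCLCs, so the libraries of the 2 lines overlapped. Of the 5 paternal imprint genes 1 intron rose in the ESC line and nothing else was called in either, whereas with centring 2 exons and 4 introns were lower in the ESC line and 2 of each in the pESC line.

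The difference between the lines in their change was tested as well, a test added after the data were seen. Of all features 0.0365% were called, with 0.0183% in each direction, and among the 14244 genes 5 exons (1 with a positive ESC line minus pESC line difference and 4 with a negative one) and 7 introns (3 and 4). No gap was called, against a background of 0%, and with all 12 libraries in the fit 2 were. No exon was called without any single ESC, pESC or pESC-PGCLC library. No intron was called without any single pESC or pESC-PGCLC library, the Commd1 intron included, and 3 were called without either ESC library. Without ESC-PGCLC replicate 2 there were 1 exon and 2 introns. For the Commd1 intron the ESC line changed by 32.3 points and the pESC line by -2.04 points, a difference of 34.3 points (adjusted p = 0.00721). For the Plagl1 exon the changes were 40.4 and 13.3 points and the difference 27.1 points (adjusted p = 0.0266).

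PGCLCs of the 2 lines were then compared directly. pESC-PGCLCs were lower by 1.96 points in exons and 2.14 points in introns, and the closest replicates were 1.56 and 1.59 points apart (exact two-sided permutation test, p = 0.333, its smallest value). By limma 5 exons were higher and 5 lower in pESC-PGCLCs, and 15 introns were higher and 3 lower. Over all features 0.0948% were called, 0.0445% as higher and 0.0503% as lower. The gap was called in 11 genes in each direction, against 0.0812% of all paired genes for rises and 0.0880% for falls. These counts depended on the libraries, since 1 gap was called without replicate 2 of either group and 2 without pESC-PGCLC replicate 1, and without ESC-PGCLC replicate 1 there were 31 exons, 45 introns and 34 gaps. The balance of directions depended on the scale as well. On untransformed levels 18 exons were higher and 121 lower and 38 introns were higher and 95 lower, and with an offset of 0.1 in the log odds 18 exons were higher and 92 lower and 39 introns higher and 77 lower, so that most introns called were then lower in pESC-PGCLCs.

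Several of the introns called higher were under 10% in ESC-PGCLCs and methylated in every other group. The Scgn intron was at 0 in both ESC-PGCLC libraries and at 53.7% and 52.1% in pESC-PGCLCs, with 34.8% as the lowest value in the other 10 libraries (adjusted p = 0.00185). Its exon was between 0.505% and 3.46% throughout. The Cryzl2 intron, of a quinone reductase-like gene, was at 7.14% and 7.02% against 55.2% and 53.3% (adjusted p = 0.00185). The intron of Tomm70a, a mitochondrial import receptor gene, was at 1.46% and 0.917% against 43.2% and 40% (adjusted p = 0.0104), and that of the centrosomal gene Cep295 at 2.99% and 2.16% against 43.2% and 33.5% (adjusted p = 0.0304).

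Exons of other genes did the same. Klhl12, an adaptor of a ubiquitin ligase, had exons at 3.86% and 5.18% in ESC-PGCLCs, with 34.7% and 34.4% in pESC-PGCLCs (adjusted p = 0.0329), with introns at 60.6% and 57.7% against 54.3% and 54.6%. Ckap5, a microtubule polymerase gene, had exons at 2.15% and 1.99% against 17.8% and 15.7% (adjusted p = 0.00843). The Mier3 exon was at 3.10% and 3.08% in ESC-PGCLCs and between 24.9% and 58.6% in the other 10 libraries, with introns between 4.39% and 7.89%. Between the PGCLCs of the lines it differed by 28.7 points and was not called (adjusted p = 0.0688). Between ESCs and ESC-PGCLCs it fell by 51.6 points (adjusted p = 7.45e-05), and between pESCs and pESC-PGCLCs by 24.5 points (adjusted p = 0.0059).

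Counted over the 14244 genes, 9 exons and 8 introns were under 10% in both ESC-PGCLC libraries and at 20% or more in the other 10, in 17 different genes. In E12.5 PGCs, the group with the lowest intron mean among PGCs and PGCLCs, 7 exons and 7 introns in 13 genes had that pattern. ESCs had 1 exon and 2 introns in 2 genes, and pESCs, E9.5 PGCs and pESC-PGCLCs had none. The thresholds of 10% and 20% were set after the levels had been seen, and the read depth of these values is unknown. The shares of all features with these patterns are not given, so the counts are a description. Of the 5 exons called lower in pESC-PGCLCs, that of Atp6v0d2, a subunit of the proton pump of osteoclasts and macrophages, was at 72.2% and 73.3% in ESC-PGCLCs, with 51.2% and 50% in pESC-PGCLCs (adjusted p = 0.0368).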

How the data were processed

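RRBS libraries of 12 samples were prepared by the authors with MspI, a lambda spike-in and bisulfite conversion. Per the submitters' processing notes reads were aligned with Bismark 0.16.3 and Bowtie2 to mm10, and per the study reads identical in sequence and position were counted as duplicates, whose removal is not stated, and levels were corrected for non-conversion. The deposited tables give the methylation level of each feature as a fraction, printed here as percent, with no read counts, so depth is unknown and no interval or count model was possible. The coverage minimum and the feature definitions are not given in the sources used here.

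Genes, exons, introns and MspI sites were taken from GENCODE release M21 (GRCm38), in which 99.9568% of gene IDs were found. Levels were tested as log2((level + 0.01)/(1 - level + 0.01)) with limma 3.58.1 in R 4.3.3, adjusted by Benjamini-Hochberg over all features. PGC and PGCLC comparisons shared a fit of 8 libraries, stem cell to PGCLC comparisons another 8, and pESC against ESC a fit of 4. A call needed an adjusted p under 0.05 and at least 10 points in the same direction. The gap was tested as the exon minus intron log2 odds over all paired genes. Group means were compared by exact two-sided permutation tests with Python 3.11.15 and scipy 1.17.1. The fits were tested on simulated data.

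Named genes were the 5 largest rises and falls of the gap and the 3 largest of exons and introns per comparison among called protein-coding genes, filled from genes with an unadjusted p under 0.05 and no overlap of replicates where too few were called, plus list members and the 3 longest spans. The genes, lists and tests were chosen with earlier results of these data known. Genes on X were left out, and some genes that the rule named are not reported here. Alternatives were an offset of 0.1, untransformed levels, centring on the library median, all 12 libraries in the fit, a replicate block, medians, genes without overlap, all chromosomes, and leaving out each library.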

Additional observations from a re-analysis of the deposited data

Results flagged for a closer look

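The change from stem cells to PGCLCs differed between the ESC and the pESC line in 12 parts of 11 genes by a limma test of the difference itself, a test added after the data were seen. The introns of Commd1 and of Gm28048, which overlaps it on the same strand so that their levels are not independent, changed more in the ESC line, by 34.3 points (adjusted p = 0.00721) and 20.4 points (adjusted p = 0.0246). ESCs had 1.78% and 1.99% in the Gm28048 intron and pESCs 24.1% and 25.4%, while the 4 PGCLC libraries were between 21.8% and 24.8%. Plagl1 changed more in the ESC line by 27.1 points in the exon (adjusted p = 0.0266) and 30.1 points in the intron (adjusted p = 0.0266). Its intron was at 1.85% and 2.56% in ESCs and 30.6% and 27.5% in pESCs.

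The other 8 parts changed toward lower levels in the ESC line relative to the pESC line. The difference was -55.5 points in the Scgn intron (adjusted p = 0.0300), -45.0 points in the Cryzl2 intron (adjusted p = 0.0300), -38.7 points in the Tomm70a intron (adjusted p = 0.0376) and -30.0 points in the Rwdd4a intron (adjusted p = 0.0266). In exons it was -39.9 points in AC174800.1 (adjusted p = 0.0477), -27.2 points in Mier3 (adjusted p = 0.0351), -26.5 points in Rnf13 (adjusted p = 0.0295) and -20.1 points in Adamts16 (adjusted p = 0.0354). The AC174800.1 exon was at 0 in both ESC-PGCLC libraries and at 55.6% and 37.5% in pESC-PGCLCs. The Rnf13 exon was at 15% and 25% in ESCs, at 0 in both pESC libraries, and at 0 in one and near 20% in the other library of each PGC stage, so its replicates were far apart.

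Of 13 alternatives each, the call was kept in 9 for the Commd1 intron, in 6 for the introns of Gm28048 and Scgn, in 4 for Rwdd4a, in 3 for AC174800.1, Rnf13, Cryzl2, Tomm70a and the Plagl1 intron, in 2 for the Plagl1 exon and in 1 for Adamts16 and Mier3. Their adjusted p ranged from 8.51e-05 to 0.101 for the Commd1 intron, from 0.00364 to 0.556 for Scgn and from 0.00219 to 0.254 for the Plagl1 exon.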

How the results depend on the processing

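Depth is unknown, so counting error could not be separated from the spread between 2 libraries. Of 168 called results of named genes, 154 kept the call with an offset of 0.1, 148 on untransformed levels, 151 with all 12 libraries, 148 with a replicate block and 109 whenever a library was left out. With centring 123 kept it, 33 lost it and 12 turned. In the PGC comparison these were, in points, the introns of Dazl (3.82), Trim28 (1.48), Ctnna2 (4.52), Ptprd (5.02), Esrrb (-1.53), Prdm14 (2.23) and Mest (-1.26) and the exons of Col1a1 (-1.99), Pou5f1 (5.67) and Klhl12 (-0.276), and in the ESC line the introns of Snrpn (3.07) and Bpgm (6.93), whose values on the level scale are centred ones.

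Centring gave 5228 intron calls in the PGC comparison, 6854 exons and 5561 introns in the ESC line, 4254 and 4122 in the pESC line, 34 gaps between PGCLCs and 2 exons in the line difference. All 12 libraries in the fit gave 1694 gaps in the PGC comparison, 6 exons, 7 introns and 3 gaps between pESCs and ESCs, 34 gaps between PGCLCs, and 15 introns and 2 gaps in the line difference. Between PGCLCs an offset of 0.1 gave 110 exons and 116 introns, and untransformed levels 139, 133 and 14 gaps. In the line difference the offset gave 0 exons and 2 introns and untransformed levels 1 and 2.

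With a replicate block there were 3 exons, 6 introns and 9 gaps between PGCLCs and 3 exons in the line difference, and the other counts, such as 6693 exons and 8488 introns in the PGC comparison, stayed within 1.5 times. Same-numbered libraries deviated together with correlations from -0.141 to 0.376, so with 2 pairs the numbers were not shown to pair them. With crossed numbers 6724 exons, 8507 introns and 3053 gaps were called in the PGC comparison and 2586, 2836 and 1812 in the ESC line.

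By medians the exon minus intron level was -1.41 and -1.62 points in the stem cells (ESCs, then pESCs), -1.25 and -1.12 in PGCs by age, and -1.10 and -1.25 in PGCLCs of the ESC and the pESC line. Over genes without overlap it was -3.22, -3.34, -4.00, -2.70, -3.18 and -3.13 points in the same order, and with all chromosomes -3.97 in E12.5 PGCs. The share held at E12.5 was 55.4% and 58.2% by medians and 64.2% and 65.2% in genes matched within 5 points. The change of the gap turned in the ESC line by medians (0.305) and without overlap (0.0472), and between PGCLCs by medians (-0.146).

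With a library left out, a lone sample is assumed to vary like the other groups. Calls then ranged from 1788 (without E12.5 PGC replicate 2) to 2107 gaps (without E9.5 PGC replicate 1) in the PGC comparison, the only count there to leave 1.5 times. In the ESC line they ranged from 1484 to 4277 exons, 1371 to 5117 introns and 710 to 2308 gaps, with the low ends without ESC-PGCLC replicate 2 and the high ends without ESC replicate 1. In the pESC line the ranges were 804 to 1081 exons, 636 to 955 introns and 306 to 855 gaps (lowest without a pESC-PGCLC library, highest without pESC replicate 2), between pESCs and ESCs 0 to 10 exons and 0 to 14 introns, between PGCLCs 2 to 31 exons, 4 to 45 introns and 1 to 34 gaps, and in the line difference 0 to 5 exons and 0 to 9 introns. Without ESC replicate 2 the pESC minus ESC changes turned to -1.41 points in exons, -1.47 in introns and 0.0606 in the gap, and without ESC replicate 1 they were 2.38, 2.76 and -0.379. The gap change in the pESC line ranged from -0.0169, without pESC-PGCLC replicate 2, to 0.148.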

Other observations

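Of the 9 exons that were under 10% in both ESC-PGCLC libraries and at 20% or more in the other 10, 1700021F05Rik, Anxa3, Ptk2, Tmc5 and Ttc21b have not yet been described, and of the 8 introns Aatf, Hexdc and Rfx7 have not. The pattern was chosen after the levels were seen, so it is given as values with no test. The exon of Ptk2, which codes for focal adhesion kinase, was at 3.54% and 1.48% in ESC-PGCLCs, 20.6% and 26.3% in pESC-PGCLCs, 27.7% and 47.7% in E9.5 PGCs and 36.2% and 28.5% in E12.5 PGCs. Stem cells had 33.5% and 44.6% in ESCs and 45.7% and 44.8% in pESCs. The lowest of these 10 libraries was therefore well above the ESC-PGCLC libraries, although the E9.5 libraries differed by 20 points.

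The reverse pattern, at 20% or more in the 4 ESC and pESC libraries and under 10% in the other 8, held among others for the exons of Angel2, Hlf, Myl12a, Myl12b and Rab11fip2 and the introns of Derl2, Nefm, Sc5d and Smim15. Myl12a and Myl12b, which code for myosin regulatory light chains, are close paralogs, and how reads were split between them is not known. The intron of Suclg1, a subunit of a citric acid cycle enzyme, was at 37.9% and 50.3% in ESCs and 38.2% and 59.5% in pESCs. It was at 0 in both E9.5 PGC libraries, at 15.1% and 0 in E12.5 PGCs, and between 0.617% and 2.83% in the 4 PGCLC libraries.

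Only 2 exons were at 20% or more in both E9.5 PGC libraries and under 10% in the other 10, and no intron was. The intron of Actr5 was not among them by its value of 10.7% in pESC replicate 2.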
